A study of Mus musculus with 4 samples.

Results

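The transcription factors that are known from work on tuft cell development formed a set of 8 genes, Pou2f3, Gfi1b, Gfi1, Hmx2, Hmx3, Spib, Ascl2 and Atoh1, which were found by their symbols among the 48709 genes of the expression table. All 8 were listed, each on a single line, and their levels were examined in mouse trachea and stomach, in cells sorted for EGFP or for Tomato. The 4 libraries held 1 library per sort and tissue, each from cells pooled from 3 mice, so no replicate existed and no test between groups could be made. All mice carried the Tas2r143-CreERT2 transgene, a bacterial artificial chromosome in which the promoter of the bitter taste receptor gene Tas2r143 drives a tamoxifen-inducible Cre, together with the Rosa26 mT/mG reporter allele on a C57BL/6 background. The mice came from a single one of several independent transgenic lines, received tamoxifen for 5 days and were analysed 5 days after the last injection. Their age is not given in the sample labels. Recombined cells and their descendants were labelled by EGFP and all others by Tomato. The EGFP sort took live, DAPI-negative cells with EGFP, whereas the Tomato sort took live cells with Tomato and no EGFP that also had to carry the epithelial surface protein EpCAM, so that the EGFP sort alone could hold labelled cells from outside the epithelium.

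Tuft cells are rare chemosensory epithelial cells that carry parts of the taste signalling cascade and release interleukin 25, eicosanoids and acetylcholine. POU2F3, a POU domain factor that binds octamer sequences, is required for their formation, and the co-activators encoded by 1810046K07Rik (OCA-T1, POU2AF2) and Gm684 (OCA-T2, COLCA2) work together with it. GFI1B and GFI1 are closely related zinc finger repressors that bind a core of AATC and recruit the histone demethylase LSD1 with CoREST proteins. SPIB is an ETS factor of B cells, plasmacytoid dendritic cells and M cells that has also been found in tuft cells. HMX2 and HMX3 are homeobox factors of the inner ear and hypothalamus encoded side by side, ASCL2 is a basic helix-loop-helix factor of intestinal stem cells, and ATOH1 directs cells of the gut to secretory fates.

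All positions refer to GRCm38 with the GENCODE M21 annotation. Pou2f3 lies on the minus strand of chromosome 9 from 43123939 to 43210369, and its longest transcript has 13 exons and 2610 bases. Gfi1b lies on the minus strand of chromosome 2 from 28609450 to 28621982 with 7 exons, and Gfi1 on the minus strand of chromosome 5 from 107716657 to 107726036 with 6 exons. Of the merged exons of Gfi1, 101 bases (3.17%) are shared with A430072P03Rik on the opposite strand, and the strand setting of the counting is not stated. Hmx3 (131542867 to 131544925) and Hmx2 (131548773 to 131558014) follow each other on the plus strand of chromosome 7 with 3847 bases between them, inside the annotated span of Fgfr2 on the minus strand, and the longest transcript of each has 2 exons. Chromosome 7 also holds Spib (44525993 to 44532071, minus strand, 6 exons) and Ascl2 (142966829 to 142969264, minus strand, 3 exons). Atoh1 is a gene of a single exon on the plus strand of chromosome 6 from 64729125 to 64731245. Reads that aligned to several places had been left out by the authors. None of the windows of 75 bases in the longest transcripts of Gfi1b, Gfi1, Hmx2, Hmx3, Spib, Ascl2 and Atoh1 occurs in a transcript of another gene.

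The promoters of Gfi1b, Spib and Hmx2 are shown because these 3 genes had the largest differences between the libraries described below. Each sequence holds the 250 bases before the RefSeq start on GRCm38.p6, read 5′ to 3′ on the strand of the gene. Capitals mark the GFI core AATC and the octamer core TGCAAAT on either strand (GATT and ATTTGCA as read on the other strand).
Gfi1b (chr2:28621983-28622232, minus strand): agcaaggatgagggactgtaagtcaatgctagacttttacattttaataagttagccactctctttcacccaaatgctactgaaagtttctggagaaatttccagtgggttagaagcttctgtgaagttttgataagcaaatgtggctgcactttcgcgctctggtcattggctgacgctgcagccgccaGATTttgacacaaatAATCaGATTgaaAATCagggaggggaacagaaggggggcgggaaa
Spib (chr7:44532072-44532321, minus strand): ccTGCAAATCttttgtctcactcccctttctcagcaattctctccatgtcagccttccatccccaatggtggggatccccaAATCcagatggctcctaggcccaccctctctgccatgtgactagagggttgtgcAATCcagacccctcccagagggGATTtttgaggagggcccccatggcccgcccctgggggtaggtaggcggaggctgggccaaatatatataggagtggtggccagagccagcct
Hmx2 (chr7:131548507-131548756, plus strand): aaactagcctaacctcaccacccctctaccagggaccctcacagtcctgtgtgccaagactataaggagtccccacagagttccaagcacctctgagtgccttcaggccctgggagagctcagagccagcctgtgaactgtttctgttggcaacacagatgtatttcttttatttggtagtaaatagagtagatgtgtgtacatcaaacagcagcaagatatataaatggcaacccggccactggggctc

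RefSeq entries were matched for 7 of the 8 genes and gave 9 promoters, in none of which the full octamer ATGCAAAT was found. It was found in 1.6% of all 32851 promoters. The shorter core TGCAAAT, which was added to the search after the sequences had been seen, was found in the Spib promoter alone, at -248 to -242 from the start, and in 3.56% of all promoters. AATC was found 4 times in the Gfi1b promoter, between -60 and -30, and 4 times in the Spib promoter, where the first match, at -244 to -241, overlaps TGCAAAT. At least as many matches were found in 7.04% of all promoters, the median was 1, and 69% of promoters held at least 1. The Hmx2 promoter shown has no match, the promoter of its second RefSeq start has 1, Hmx3 has 2, Ascl2 and Atoh1 have 1 each, and the 2 promoters of Gfi1 have 1 and none. These matches describe letters in a window and not bound sites.

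The deposited values are normalized counts, and they summed to between 9979296 and 15433150 per library. From the gaps between low values, 1 read was estimated to be worth 1.61 normalized counts in the tracheal EGFP library and between 0.786 and 0.816 in the other 3, so that the tracheal EGFP library was the shallowest in reads. A gene listed at 0 is therefore compatible with up to 4.83 normalized counts (3 reads) in the tracheal EGFP library and with at most 2.45 in each other library. Title and tissue field of each sample name opposite organs, and the libraries are named here by their titles. The trachea list (8 genes, among them the club cell gene Cyp2f2 and the basal cell genes Krt5 and Trp63) summed to 62064 and 1385086 in the EGFP and Tomato libraries titled trachea and to 2 and 86 in those titled stomach. The stomach list (10 genes, among them Pgc of chief cells and Gkn1 of pit cells) summed to 158348 and 2000039 in the libraries titled stomach and to 2067 and 56209 in those titled trachea, where Lipf alone gave 924 and 53408. Lipf went the other way from the list, with 0 in both libraries titled stomach. Atp4a gave 749 in the EGFP library titled trachea, against 2102 and 4906 in the EGFP and Tomato libraries titled stomach. Of the tuft cell effector list (25 genes, among them Trpm5, Dclk1 and Avil), 24 were above 0 in each EGFP library.

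Pou2f3, Spib and Ascl2 were higher in EGFP-positive than in Tomato-positive cells of the trachea, and Pou2f3, Gfi1b, Hmx2 and Spib were higher in those of the stomach. In this account a gene is called higher or lower if it differed at least 4-fold and the higher of both values was 50 normalized counts or more. In the trachea 4 of the 8 genes reached this minimum, of which 3 were higher and 0 lower, with a median log2(EGFP/Tomato) of 3.11. By the same rule 25.2% of all 10523 genes at the minimum were higher, and their median was -0.32. In the stomach 5 genes reached the minimum, of which 4 were higher and 0 lower, with a median of 4.0, whereas 14.8% of all 11094 genes were higher with a median of -0.15. The log2 values carry a pseudocount of 1, which understates differences of low genes. Ratios are given with exact binomial 95% intervals on estimated reads, which cover counting error only and neither the spread between animals nor that of cDNA amplification. In sorted bulk samples, fewer cells that express a gene and less RNA per cell cannot be told apart. The authors counted EGFP in most DCLK1-positive tuft cells of the trachea but in a minority of those of the stomach corpus. Tomato-positive cells can thus hold tuft cells without EGFP, and EGFP to Tomato ratios of trachea and stomach may rest on unlike baselines.

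**Figure D1:**
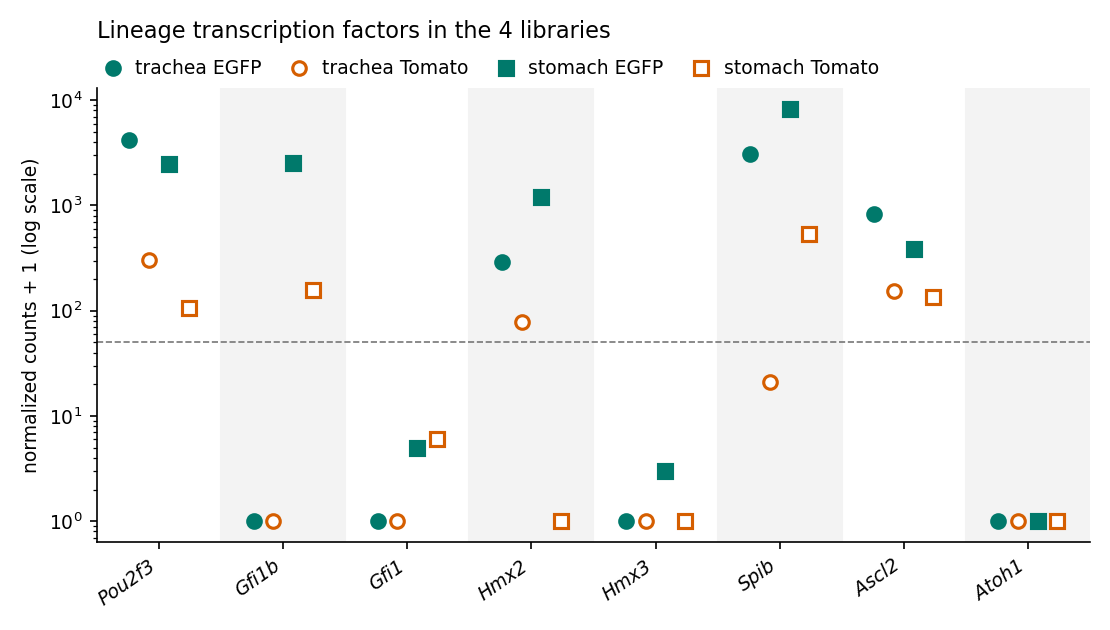
Normalized counts plus 1 (log scale) of the 8 lineage transcription factors in the 4 libraries, with tracheal libraries as circles, gastric libraries as squares, EGFP filled and Tomato open, and the minimum of 50 as a dashed line. Gfi1b sits at 0 in both tracheal libraries and at 2547 in gastric EGFP-positive cells, whereas Pou2f3, Spib and Ascl2 lie higher in the EGFP than in the Tomato library of each tissue and Atoh1 lies at 0 throughout.

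Pou2f3, the factor required for tuft cells, was at 4148 normalized counts in tracheal EGFP-positive cells, at 300 in tracheal Tomato-positive cells, at 2484 in gastric EGFP-positive cells and at 105 in gastric Tomato-positive cells. Both EGFP libraries lay above both Tomato libraries. The ratio of EGFP to Tomato was 13.8 in the trachea (95% interval 12.4 to 15.4) and 23.7 in the stomach (19.8 to 28.3). EGFP-positive cells of the trachea had 1.67 times the value of those of the stomach (1.58 to 1.76), below the 4-fold rule. Between the Tomato libraries the tracheal value was 2.86 times the gastric value (2.33 to 3.51).

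The 5 listed octamer factors and co-activators differed from each other in where they were found. 1810046K07Rik, which encodes the co-activator OCA-T1, was at 14801 and 2332 in tracheal EGFP-positive and Tomato-positive cells and at 6173 and 136 in the gastric cells. Its EGFP to Tomato ratio was 6.35 in the trachea (6.09 to 6.62) and 45.4 in the stomach (38.8 to 53.1), so it was called higher with Pou2f3 in both tissues. Gm684, which encodes OCA-T2, was at 861 and 1495 in the trachea and at 89 and 33 in the stomach and was called in neither tissue. Tracheal exceeded gastric EGFP-positive cells for Gm684 by 9.67-fold (7.9 to 12). Pou2f1, a widely expressed octamer factor, was at 262 and 148 in the trachea and at 68 and 74 in the stomach and passed the rule in no comparison.

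Pou2f2 and Pou2af1, the octamer factor and co-activator of B lineage cells, were at the minimum in gastric EGFP-positive cells and in no other library. Pou2f2 was at 373 in gastric EGFP-positive and 29 in gastric Tomato-positive cells, against 2 and 0 in the trachea. Pou2af1 was at 445 in gastric EGFP-positive cells and at 0 in the other 3 libraries. The sum of 10 listed plasma cell genes was also highest in gastric EGFP-positive cells. All 10 were above 0 there, with a sum of 1392797, against 70878 in gastric Tomato-positive cells. The sums were 29533 and 7189 in tracheal EGFP-positive and Tomato-positive cells. Igha (669648), Igkc (530119) and Jchain (149752) gave most of the gastric EGFP sum. Sdc1 (499 and 1023) and Derl3 (231 and 352) lay below the Tomato value in the stomach, without passing the rule. Sdc1 was at 0 and 5642 in the trachea. Of the plasma cell genes at the minimum, 6 of 8 were higher and 0 lower in the stomach. In the trachea 4 of 6 were higher and 2 lower, beside the shares of all genes given below. Immunoglobulin genes took 12.9% of the gastric EGFP library and 0.0228% to 0.549% of the other 3. The part of plasma cells in the values of Pou2f2 and Pou2af1 was not tested. Of the octamer list, 1 of 3 genes at the minimum was higher and 0 lower in tracheal EGFP-positive cells, and 3 of 5 were higher and 0 lower in gastric EGFP-positive cells. In tracheal against gastric EGFP-positive cells 1 of the 5 was higher and 2 were lower. Among all genes 25.2% were higher and 32.4% lower in tracheal EGFP-positive cells, and 14.8% and 22.4% in gastric EGFP-positive cells. The shares between the EGFP libraries were 19.8% higher and 28.3% lower in the trachea.

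Gfi1b, which encodes the repressor of tuft, erythroid and megakaryocytic cells, was detected in both gastric libraries and in neither tracheal library. It was at 2547 in gastric EGFP-positive cells and at 158 in gastric Tomato-positive cells, a ratio of 16.1 (13.9 to 18.7), and at 0 in both tracheal libraries. Gastric EGFP-positive cells thus exceeded tracheal EGFP-positive cells at least 527.5-fold, and gastric Tomato-positive cells exceeded tracheal Tomato-positive cells at least 65.1-fold, each bound being set by 3 reads in the tracheal library. The value of 2547 rests on an estimated 3240 reads. Of 397 other genes with 2038 to 3183 normalized counts in gastric EGFP-positive cells, 25 (6.3%) were listed at 0 in tracheal EGFP-positive cells and 18 (4.53%) in both tracheal libraries. In the tracheal EGFP library, with the fewest reads, 102 of 3455 genes (2.95%) that reached 200 in each of the other 3 libraries were listed at 0.

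Gfi1, the related repressor of goblet and Paneth cell development and of lymphoid cells, was near the detection limit. It was at 0 in both tracheal libraries, at 4 in gastric EGFP-positive cells and at 5 in gastric Tomato-positive cells, which are an estimated 5.09 and 6.12 reads. The gastric EGFP to Tomato ratio of 0.8 had an interval of 0.194 to 3.15, so that no difference was detectable at this depth. In gastric EGFP-positive cells Gfi1b per kilobase of its longest transcript was at 1398 and Gfi1 at 1.4.

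Of 14 erythroid, megakaryocyte and mast cell genes, which mark the blood cells known to express Gfi1b, 4 were above 0 in gastric EGFP-positive cells with a sum of 470, of which the receptor gene Kit gave 322. The defining erythroid and megakaryocyte genes Gata1, Klf1 and Itga2b were at 0 there and Pf4 was at 1, whereas the haemoglobin genes Hba-a1 and Hbb-bs were at 52 and 95. In gastric Tomato-positive cells, where Gfi1b was lower, 11 of the 14 were above 0 with a sum of 4242, of which the mast cell protease gene Mcpt2 gave 2435. The sums were 784 and 468 in tracheal EGFP-positive and Tomato-positive cells, with 1 and 4 genes above 0. The plasma cell sums given above were, like Gfi1b, highest in gastric EGFP-positive and next in gastric Tomato-positive cells, and their part in its values was not tested.

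Of the 9 listed partners of GFI factors, 7 reached the minimum in the tracheal comparison of EGFP with Tomato, of which 3 were higher and 2 lower, beside 25.2% higher and 32.4% lower of all genes. Hmg20b, a subunit of the LSD1 complex, was at 652 in EGFP-positive and 28 in Tomato-positive cells of the trachea, a ratio of 23.3 (16.3 to 33.5). The histone deacetylase genes Hdac1 (969 and 186) and Hdac2 (562 and 67) were also higher there. The CoREST genes Rcor1 (0 and 65) and Rcor3 (23 and 658) were lower. In the stomach 1 of 8 partners at the minimum was higher and 0 lower, beside 14.8% higher and 22.4% lower of all genes, so that the count of higher partners is near that of other genes. This was Rcor3, at 367 in EGFP-positive and 79 in Tomato-positive cells (ratio 4.65, interval 3.72 to 5.83), which thus went in opposite directions in the 2 tissues. The LSD1 gene Kdm1a was at 225 and 457 in the trachea and at 484 and 482 in the stomach and passed the rule in no comparison.

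Between the EGFP libraries 7 partners reached the minimum, of which 1 was higher in the trachea and 2, Rcor1 and Rcor3, were lower. Among all genes 19.8% were higher and 28.3% lower, so that these counts are near those of other genes. Rcor1 was at 0 in tracheal and 148 in gastric EGFP-positive cells, a difference of at least 30.7-fold, and Rcor3 was 16.0-fold lower in the trachea (9.61 to 30). The other listed partners Rcor2 and Phf21a were at 0 in all 4 libraries and at 2 to 97, respectively.

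**Figure D2:**
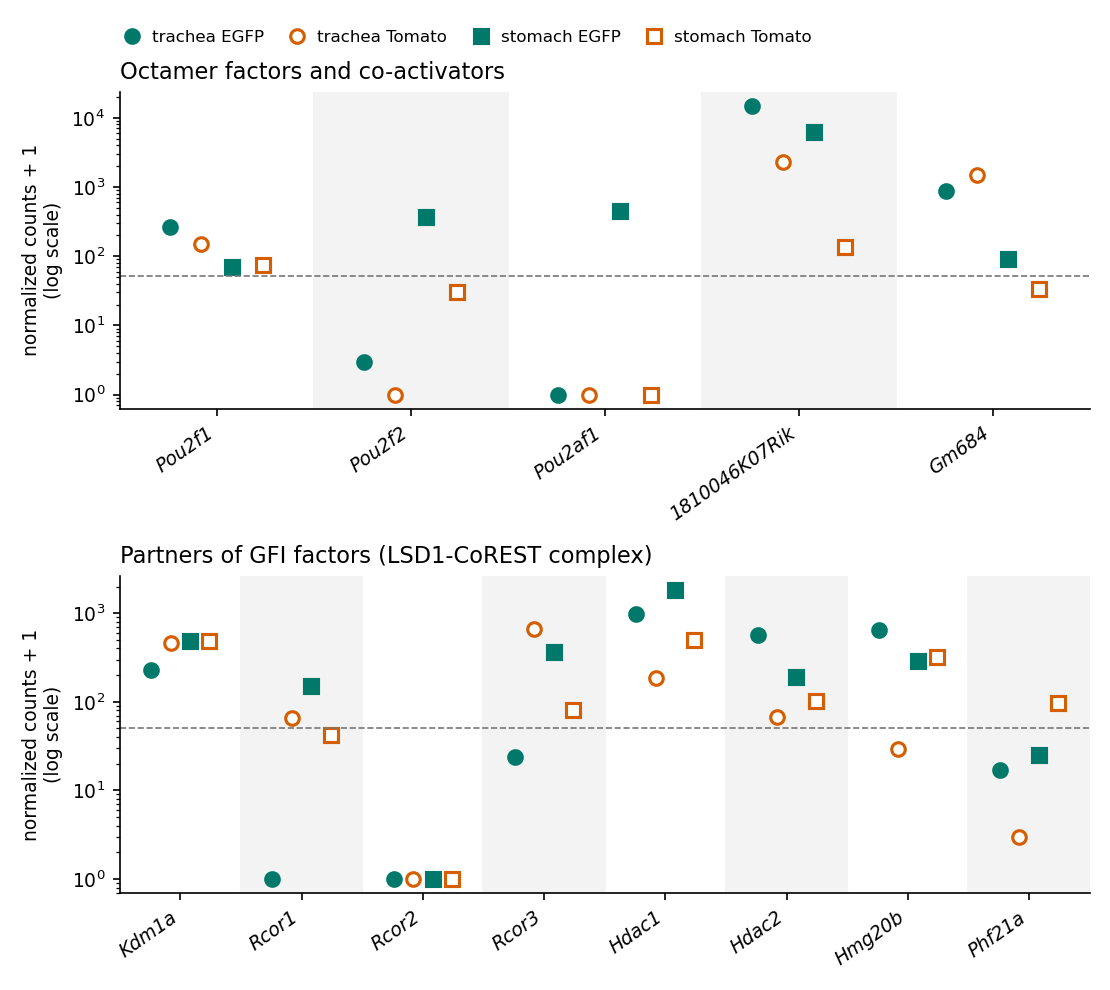
Normalized counts plus 1 (log scale) of the octamer factors and co-activators (upper panel) and of 8 LSD1 and CoREST partners of GFI factors (lower panel) in the 4 libraries, with symbols for library and the minimum of 50 as a dashed line. Pou2af1 is above 0 in gastric EGFP-positive cells alone (445), and Rcor1 lies at 0 in tracheal EGFP-positive cells and at 148 in gastric EGFP-positive cells.

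Hmx2, a homeobox gene of the inner ear, was at 288 in tracheal EGFP-positive cells, at 78 in tracheal Tomato-positive cells, at 1199 in gastric EGFP-positive cells and at 0 in gastric Tomato-positive cells. Gastric EGFP-positive cells had the highest value and gastric Tomato-positive cells the lowest. In the stomach the EGFP value exceeded the Tomato value at least 489.5-fold, counted against 3 reads. In the trachea the ratio was 3.69 (2.88 to 4.8), a log2(EGFP/Tomato) of 1.87 that stayed below the rule, although the gene passed it when every library was scaled to the same total, with 2.44, or 2.45 without immunoglobulin genes. Gastric exceeded tracheal EGFP-positive cells 4.16-fold (3.56 to 4.88). This log2 difference of -2.05 lay just past the rule and fell short of it, with -1.61, at equal totals, with -1.80 at equal totals without immunoglobulin genes and with -1.53 when the tuft cell effectors were centred on 0.

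Hmx3, the neighbouring gene, was at 2 in gastric EGFP-positive cells, an estimated 2.54 reads and under the limit of detection, and at 0 in the other 3 libraries. Hmx2 and Hmx3 had per kilobase levels of 387 and 1.37 in gastric EGFP-positive cells. The third family gene, Hmx1, was at 0 in all libraries.

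**Figure D3:**
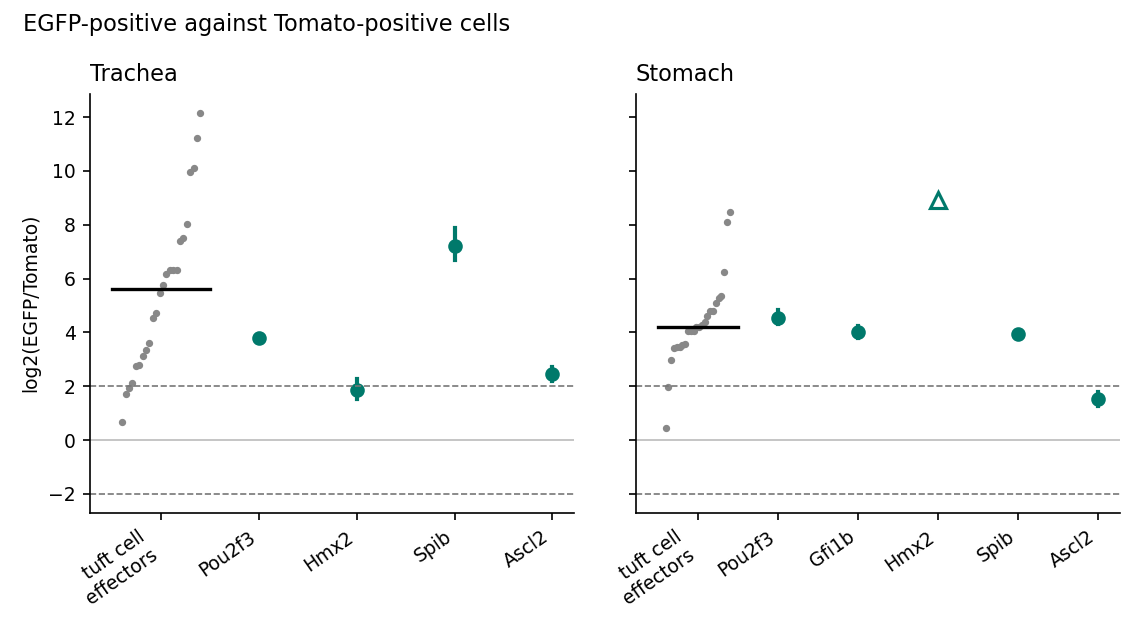
The log2(EGFP/Tomato) of the lineage factors at the minimum in each tissue, as points with 95% intervals of counting error or, where the Tomato library was at 0, as an open triangle at the lower bound, beside the tuft cell effectors (grey, with their median as a bar). Dashed lines mark 4-fold differences; Spib in the trachea (7.21) and Hmx2 and Pou2f3 (4.55) in the stomach lie above the effector medians of 5.62 and 4.19, and Hmx2 in the trachea and Ascl2 in the stomach lie below the 4-fold line.

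Spib was the member with the highest normalized count in gastric EGFP-positive cells. It was at 3104 in tracheal EGFP-positive cells, at 20 in tracheal Tomato-positive cells, at 8271 in gastric EGFP-positive cells and at 537 in gastric Tomato-positive cells. Both EGFP libraries exceeded both Tomato libraries. The ratio of EGFP to Tomato was 155 in the trachea (104 to 238) and 15.4 in the stomach (14.2 to 16.7). The larger tracheal ratio went with a low Tomato value, since tracheal Tomato-positive cells were 26.9-fold below gastric Tomato-positive cells (17.8 to 41.4). Of the EGFP libraries the gastric one was 2.67-fold higher (2.54 to 2.8), below the rule.

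Markers of the other cells known to express Spib differed among the libraries. Of 10 B cell genes, 3, 1, 6 and 4 were above 0 in tracheal EGFP-positive, tracheal Tomato-positive, gastric EGFP-positive and gastric Tomato-positive cells, with sums of 1713, 1, 3800 and 374. The B cell genes Ms4a1, Cr2 and Fcer2a were at 0 in all 4 libraries, and Pax5 was at 280 in tracheal EGFP-positive cells and at 0 elsewhere. Cd79b, a subunit of the B cell receptor, gave 1386 and 2855 of the sums of tracheal and gastric EGFP-positive cells. The 7 genes of plasmacytoid dendritic cells summed to 3677 and 4246 in the trachea and to 2705 and 2204 in the stomach, and their defining gene Siglech was at 0 in both EGFP libraries. Among the others, Tcf4 was at 3550 and 718 in tracheal EGFP-positive and Tomato-positive cells, and Ly6d was at 734 and 79 in those of the stomach. Ly6d (56 and 2758) and Irf8 (0 and 503) went the other way in the trachea, as did Klk1 (17 and 175) in the stomach. Of 5 of these genes at the minimum in the trachea, 1 was higher and 3 were lower in EGFP-positive cells. In the stomach 1 of 4 was higher and 1 lower. Among all genes 25.2% were higher and 32.4% lower in the trachea, and 14.8% and 22.4% in the stomach. The 6 M cell genes summed to 2055 and 5088 in the trachea and to 444 and 719 in the stomach, and the defining gene Gp2 was at 0 in both EGFP libraries and gave 4463 of the sum of tracheal Tomato-positive cells. Sox8 was at 889 and 0 in tracheal EGFP-positive and Tomato-positive cells, and Marcksl1 was at 1166 and 251 in the trachea and at 315 and 75 in the stomach. Tnfaip2 (0 and 261) and Tnfrsf11a (0 and 113) were lower in the trachea, and Tnfrsf11a (53 and 323) and Ccl9 (0 and 91) in the stomach. Of the M cell genes at the minimum, 2 of 5 were higher and 3 lower in the trachea. In the stomach 1 of 4 was higher and 2 were lower, beside the shares of all genes given above. The part of M cells and plasmacytoid dendritic cells in the values of Spib was not tested. B cell sums moved with Spib across the libraries, and their part in its values was not tested. Among the related ETS genes, Spi1 was at 47 and Spic at 553 in gastric Tomato-positive cells, and both were at 2 or below in the other 3 libraries.

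Ascl2 passed the rule in the trachea alone, and its gastric EGFP to Tomato ratio was the smallest of the 5 members at the minimum there. It was at 831 in tracheal EGFP-positive cells, at 152 in tracheal Tomato-positive cells, at 386 in gastric EGFP-positive cells and at 133 in gastric Tomato-positive cells. The EGFP to Tomato ratio was 5.47 in the trachea (4.61 to 6.49) and passed the rule, whereas that of the stomach, 2.9 (2.42 to 3.48), did not. The EGFP libraries differed 2.15-fold (1.9 to 2.44) and the Tomato libraries 1.14-fold (0.922 to 1.42), an interval that includes equal levels. The 8 listed genes of Wnt targets and stem cells, the setting in which Ascl2 is best known, summed to 10208 and 18358 in the trachea and to 11985 and 10912 in the stomach, most of it from Znrf3 and Lgr4. Lgr5, the intestinal stem cell receptor, was at 11 and 0 in the trachea and at 368 and 127 in the stomach, Axin2 was at 4 or below in all libraries, and Olfm4 was at 0 in all. Of the 5 at the minimum between the EGFP libraries, 2 were higher in the trachea, as was Ascl2 without passing the rule, and 1, Lgr5, was lower. The 2 were the Wnt inhibitor genes Nkd1 (375 and 67 in tracheal and gastric EGFP-positive cells) and Rnf43 (109 and 14). Among all genes 19.8% were higher and 28.3% lower in this comparison.

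Atoh1, the factor of secretory lineages, was at 0 in all 4 libraries, which allows up to 4.83 normalized counts in tracheal EGFP-positive cells and 2.36 in gastric EGFP-positive cells. The related gene Atoh8 was at 687 in tracheal Tomato-positive cells and at 0 elsewhere. Of the 9 listed relatives of the 8 genes, Hmx1, Ascl3, Ascl4, Ascl5 and Atoh7 were at 0 in every library. At the minimum, 0 relatives were higher and 1 of 2 lower in tracheal EGFP-positive cells, beside 25.2% higher and 32.4% lower of all genes. In gastric EGFP-positive cells 0 were higher and 1 of 1 lower, beside 14.8% and 22.4% of all genes. So few relatives cannot be set apart from other genes by these counts. The 11 enteroendocrine and neuroendocrine genes, which mark a secretory lineage, summed to 6 and 649 in the trachea and to 746 and 263765 in the stomach, and their factor Neurog3 was at 0 in all 4 libraries.

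The tissues were then compared directly. Gfi1b and Hmx2 were lower in tracheal than in gastric EGFP-positive cells, whereas Pou2f3, Spib and Ascl2 did not reach a 4-fold difference. Of the 5 members at the minimum, 0 were higher and 2 lower in the trachea, with a median log2 difference of -1.41. Among all 10337 genes at the minimum 19.8% were higher and 28.3% were lower in the trachea, with a median of -0.16. With 2 of 5 genes lower beside 28.3% of all genes, the count does not set the members apart from other genes. In the Tomato libraries 1 member was higher and 2 were lower in the trachea with a median of 0.19, beside 20.3% higher and 27.9% lower of all 11338 genes with a median of -0.11. Hmx2 was higher there, at least 31.8-fold, and Gfi1b and Spib were lower. Hmx2 and Gfi1b had 78 and 158 normalized counts in the higher Tomato library, and neither is called at a minimum of 200.

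**Figure D4:**
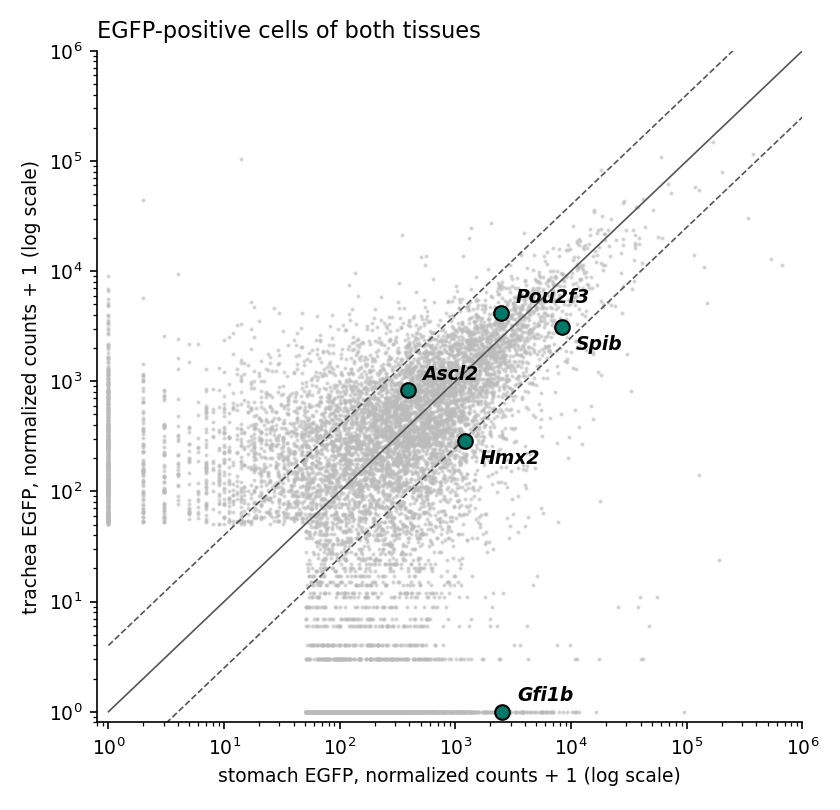
Normalized counts plus 1 in gastric (x axis) and tracheal (y axis) EGFP-positive cells, both on log scales, for the 10337 genes with at least 50 in either library (grey) and the 5 lineage factors among them (green). The solid line marks equal levels and the dashed lines 4-fold differences; Pou2f3, Ascl2 and Spib lie between the dashed lines, Hmx2 lies at the lower one and Gfi1b at 0 on the tracheal axis.

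Levels of different genes were compared per kilobase of the longest transcript. In tracheal EGFP-positive cells Pou2f3 had the highest level (1589 normalized counts per kilobase), followed by Spib (1113), Ascl2 (518) and Hmx2 (92.8). In gastric EGFP-positive cells the order was Spib (2967), Gfi1b (1398), Pou2f3 (952), Hmx2 (387) and Ascl2 (240). All neighbours in these orders differed beyond counting error. Relative to Pou2f3, the per kilobase level of Spib was 0.701 in tracheal and 3.12 in gastric EGFP-positive cells, and that of Hmx2 was 0.0584 and 0.406. Divided by coding length instead, Spib was above Pou2f3 in the trachea too, with a log2 ratio of 0.18 in place of -0.51.

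The Tomato libraries had other orders. In the trachea Pou2f3 (115 per kilobase) was followed by Ascl2 (94.7), Hmx2 (25.1) and Spib (7.17), so that Spib moved from the second place to the lowest of the 4. In the stomach Spib (193) and Gfi1b (86.7) led as in the EGFP library. Gfi1b and Ascl2 (82.9) did not differ beyond counting error there (ratio 1.05, interval 0.847 to 1.3), and Pou2f3 (40.2) followed.

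The tuft cell effectors were set beside the factors. In the trachea 21 of 24 effectors at the minimum were higher in EGFP-positive cells and 0 lower, with a median log2(EGFP/Tomato) of 5.62. In the stomach 22 of 24 were higher and 0 lower, with a median of 4.19. By the same rule 25.2% of all genes were higher in the trachea and 14.8% in the stomach. The taste channel gene Trpm5 was at 21065 and 265 in the trachea and at 14548 and 376 in the stomach, and the kinase gene Dclk1 was at 6888 and 86 and at 33844 and 2049. Between the EGFP libraries 4 effectors were higher, 4 lower and 17 neither in the trachea, with a median of -0.52. Among all genes at the minimum 19.8% were higher and 28.3% lower there, with a median of -0.16. The succinate receptor gene Sucnr1 was at 1113 in tracheal and 0 in gastric EGFP-positive cells and the cytokine gene Il25 at 4608 and 359. The reverse was seen for Siglecf, at 0 and 3384, and for the prostaglandin D synthase gene Hpgds, at 549 and 5529. Sucnr1 and Siglecf, like Gfi1b, were thus listed at 0 in the EGFP-positive cells of a single tissue. The 14 genes of T cells, innate lymphoid cells and neutrophils summed to 1008 and 1527 in the trachea and to 21 and 1080 in the stomach, and Cd3e, Cd3d and Cd8a were at 0 in all 4 libraries. Rora was at 1008 and 53 in tracheal EGFP-positive and Tomato-positive cells, Trac was at 1459 in tracheal Tomato-positive cells and at 0 elsewhere, and Gata3 was at 661 in gastric Tomato-positive cells and at 0 elsewhere.

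Of 25 other epithelial lineage factors, 4 of 13 at the minimum were higher and 4 lower in tracheal EGFP-positive cells, and 5 of 15 were higher and 4 lower in gastric EGFP-positive cells. The shares of all genes were 25.2% higher and 32.4% lower in the trachea and 14.8% and 22.4% in the stomach, and the tracheal counts are near them. Sox9, a factor of progenitor and duct cells, was at 38269 and 3777 in the trachea (ratio 10.1) and at 36316 and 9002 in the stomach (ratio 4.03). Myb was higher in both tissues, at 1005 and 8 in the trachea and at 120 and 21 in the stomach. Runx1 was higher in the trachea alone (5397 and 232, against 854 and 994 in the stomach), as was Hes6 (2921 and 340, against 752 and 450). Higher in the stomach alone were Ehf (11973 and 1017, against 8235 and 5201 in the trachea) and Prox1 (414 and 33, against 21 and 0). Runx3 (175 and 33, against 0 and 298) was also higher in the stomach alone. Hes1, a target of Notch signalling, was lower in the EGFP-positive cells of both tissues, at 18 and 2197 in the trachea and at 21 and 465 in the stomach. Between the EGFP libraries 4 of 15 were higher and 5 lower in the trachea, beside 19.8% higher and 28.3% lower of all genes. The regional factors followed the titles of the libraries, with the lung and trachea factor Nkx2-1 at 250 and 123 in the trachea and 0 in the stomach, and the gut factor Gata6 at 6655 and 4122 in the stomach and at most at 1 in the trachea.

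For each member at 50 or more in any library, the 3 genes with the most similar pattern were sought by the Euclidean distance between log2 profiles over the 4 libraries, each centred on its mean, among 9686 genes. With 4 libraries such likeness is a description of these samples only. Gfi1b was closest to Fcna, a ficolin gene (distance 0.09, at 0, 0, 2605 and 148 in tracheal EGFP-positive, tracheal Tomato-positive, gastric EGFP-positive and gastric Tomato-positive cells), to the immunoglobulin segment Ighv5-6 (0.24) and to the carboxypeptidase gene Cpm (0.59). Pou2f3 was closest to Creld1 (0.41), Ccdc66 (0.44) and 5530601H04Rik (0.65). Spib was closest to the antisense gene 4933423P22Rik (0.16), Stox2 (0.39) and the immunoglobulin gene Iglc3 (0.62). Ascl2 was closest to Mta2 (0.21), Lias (0.23) and Iqsec1 (0.28). No gene was as close to Hmx2, for which Chn1 (1.34), Ampd3 (1.43) and Krt222 (1.84) came first. Reads of immunoglobulin segments can be shared between near-identical copies, so their values are uncertain.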

How the data were processed

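RNA of sorted EGFP-positive and Tomato-positive cells of trachea and stomach was measured in 4 libraries. The input is given in the labels both in nanograms and in picograms. Full-length cDNA was amplified by PCR (SMART-Seq v4) without molecular identifiers. Per the labels and methods, the authors used Reaper for trimming, STAR 2.4.0a for alignment to GRCm38 and featureCounts 1.4.5-p1 for counting over exons, and dropped multi-gene and multi-mapping reads. The deposited values are a score, namely normalized counts that the authors rounded to whole numbers, and their scaling factors are not given in the sources used here. They were analysed as deposited, with a pseudocount of 1, a minimum of 50 and a 4-fold rule. No test across genes was run. The estimate of what 1 read is worth was tested on simulated data. Where a symbol had several lines (116 symbols, none a member), the line of highest sum stood for it. Python 3.11.15, numpy 2.4.6, pandas 2.3.3, scipy 1.17.1 and matplotlib 3.10.9 were used. The 8 genes and the 15 gene lists were chosen with earlier results of these data known. All members were named, with relatives and partners at 50 or more in any library, the defining or highest genes of the other lists, and the 3 nearest genes in likeness among those at 200 or more. Alternatives were other pseudocounts, scalings, minimums and folds. A comparison of protein sequences was not made here. Some genes of the lists are not reported here.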

Additional observations from a re-analysis of the deposited data

Results flagged for a closer look

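Hmx2 differed between tissues in opposite directions in the 2 sorts. In EGFP-positive cells it was lower in the trachea (288) than in the stomach (1199), a log2 difference of -2.05, whereas in Tomato-positive cells it was higher in the trachea (78) than in the stomach (0), a log2 difference of 6.30 with a pseudocount of 1. Among the listed partners and lineage factors, 3 genes passed the 4-fold rule in opposite directions. The CoREST gene Rcor3 had a log2(EGFP/Tomato) of -4.78 in the trachea and 2.20 in the stomach, and a log2 difference between trachea and stomach of -3.94 in EGFP-positive and 3.04 in Tomato-positive cells. Runx1 had a log2 difference between trachea and stomach of 2.66 in EGFP-positive and -2.09 in Tomato-positive cells. Runx3, which was at 0 in tracheal EGFP-positive, 298 in tracheal Tomato-positive, 175 in gastric EGFP-positive and 33 in gastric Tomato-positive cells, had a log2(EGFP/Tomato) of -8.22 and 2.37 in trachea and stomach and a log2 difference between trachea and stomach of -7.46 and 3.14 in EGFP-positive and Tomato-positive cells. With 1 library per sort and tissue these differences were not tested, and values against a library at 0 depend on the pseudocount of 1.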

How the results depend on the processing

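The count of members called in tracheal against gastric EGFP-positive cells was 2 as reported, 1 with every library scaled to the same total, 1 at the same total without immunoglobulin genes, 4 from 2-fold on and 1 from 8-fold on. In tracheal against gastric Tomato-positive cells it was 3 as reported and 1 at a minimum of 200. The other counts stayed near those reported, with 2 to 5 members called. Of 100 log2 ratios of single members under alternatives, none changed sign and 95 kept their call, and the 5 that did not were all of Hmx2. Scaling to the same total shifted all genes by 0.58 on the log2 scale in the tracheal comparison of EGFP with Tomato, by 0.18 in the gastric comparison and by 0.45 between the EGFP libraries. Scaling by the median of ratios used factors between 0.9559 and 0.9613 and so tested little. No paired analysis was possible because each sort and tissue had 1 library and the results come from no test, and no replicate could be left out. Depth limits the tracheal EGFP library most, where a value of 0 allows up to 4.83 normalized counts.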
